A study of Mus musculus with 19 samples.

Results

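The 36 genes described here encode proteins of the unfolded protein response and of the response to amino acid shortage. They were chosen by symbol as known members of these pathways, and all 36 were found by Entrez Gene ID among the 36528 IDs of the count tables. In both genotypes and both tissues they passed the filter on low counts, so every count below is over 36 genes. By role they fall into 6 stress transcription factors, 3 genes of sensor kinases and the eIF2alpha phosphatase, 4 stress effectors, 5 enzymes of amino acid and one-carbon metabolism, 2 subunits of an amino acid transporter, 8 endoplasmic reticulum (ER) chaperones and co-chaperones, 3 protein disulfide isomerases, 2 lectin chaperones and 3 genes of ER-associated degradation.

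Secretory cells load their ER with newly made proteins, and the unfolded protein response adjusts folding capacity to that load. The kinase and nuclease IRE1 splices Xbp1 mRNA, the kinase PERK phosphorylates the translation factor eIF2alpha, and ATF6 is cut in the Golgi to release a transcription factor. Phosphorylated eIF2alpha slows translation in general but lets ATF4 be made, and the kinase GCN2 reaches the same step when amino acids run short. ATF4 then raises genes for amino acid uptake and synthesis, while XBP1 and ATF6 raise chaperones and degradation factors. Alveolar type II (AT2) cells are the cells of the lung that make and secrete surfactant, including its cysteine-rich precursor proteins, and rely on this machinery.

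Polyadenylated RNA was sequenced from 5 libraries of Etv5KO AT2 cells, 4 of control AT2 cells, 5 of Etv5KO lung and 5 of control lung. The mice labelled Etv5KO were SpcCreERT2;RosatdTomato;Etv5ko/loxp, with 1 knockout and 1 loxP allele of Etv5, an ETS family transcription factor, and the controls were SpcCreERT2;RosatdTomato. Both genotypes therefore carried the tamoxifen-dependent Cre driven by the promoter of surfactant protein C and the tdTomato reporter, and both received tamoxifen at 100 mg/kg in 5 days of injection with 5 further days of waiting. Cre from this promoter is made in cells that express surfactant protein C, so other cell types in the lung libraries are not its targets. The knockout allele does not need Cre, so by genotype all cells of Etv5KO mice carried it. The control genotype lists no altered Etv5 allele, and the labels give no age or sex. AT2 cells were sorted as CD45-, CD31-, tdTomato+ and EpCAM+ cells, whereas lung was taken as dissected tissue. For each genotype 5 mice are stated, of the controls 4 AT2 libraries were analysed here, and library numbers given below only name a library.

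Total counts ran from 17426415 to 26722625 in Etv5KO AT2 libraries and from 20279607 to 28671262 in control AT2 libraries. They ran from 20332410 to 22478603 in Etv5KO lung and from 14971793 to 26989453 in control lung. Etv5 itself was not lower in libraries labelled Etv5KO (620 to 765 against 626 to 725 CPM in AT2 cells, 94.3 to 119.6 against 92.3 to 111 CPM in lung), so its gene count does not check the genotype labels. CPM is counts scaled to a common library total, after TMM scaling over all 19 libraries. The AT2 label held against its markers: 10 of 10 were higher in AT2 cells than in lung in controls, by log2 2.65 to 3.27, while 7 of 7 endothelial, 6 of 6 ciliated, 7 of 7 lymphocyte, 4 of 4 neutrophil and 6 of 6 mesenchymal markers were lower. Other lists were divided: 2 of 6 airway secretory markers were higher and 3 lower, with Bpifa1 at log2 3.88, 2 of 8 AT1 markers were higher and 6 lower (Aqp5 at 1.38), 1 of 7 macrophage markers was higher and 6 lower (Lyz2 at 2.79), and 2 of 5 plasma cell markers were higher and 3 lower (Sdc1 at 2.19), genes named after their values were seen. Control AT2 library 2 stood apart on the second principal component of the AT2 libraries (score 41.1, others −26.9 to 14.8). It had the lowest level of its group for 18 of the 36 genes. Nothing in the labels ties a library to a batch, and the labels name separate mice only in number, so p-values measure the spread between these libraries.

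Compared on a scale that allows for gene length, the most abundant of the 36 genes were ER chaperones. This scale is RPKM that the authors had also divided by the size factor of its sample. In Etv5KO AT2 cells the means were 279.6 for Calr, 275 for Hspa5, 262 for Hsp90b1 and 213 for Pdia3, and in control AT2 cells 274, 290.2, 277 and 213. Calr encodes calreticulin and Pdia3 a disulfide isomerase that works with it, while Hspa5 and Hsp90b1 encode the HSP70 and HSP90 chaperones of the ER. The transcription factor Atf3 stood among these chaperones in AT2 cells, at 244 in Etv5KO and 288 in controls, and near the bottom of the list in lung, at 4.68 in Etv5KO and 6.13 in controls. The lowest levels were those of Phgdh, Chac1 and Mthfd2, with means of 0.218, 0.864 and 2.11 in Etv5KO AT2 cells and 0.192, 0.643 and 1.28 in control AT2 cells. Together the 36 genes took 0.579% to 0.689% of all counts in Etv5KO AT2 libraries, 0.593% to 0.678% in control AT2 libraries, 0.515% to 0.597% in Etv5KO lung and 0.494% to 0.652% in control lung.

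**Figure D1:**
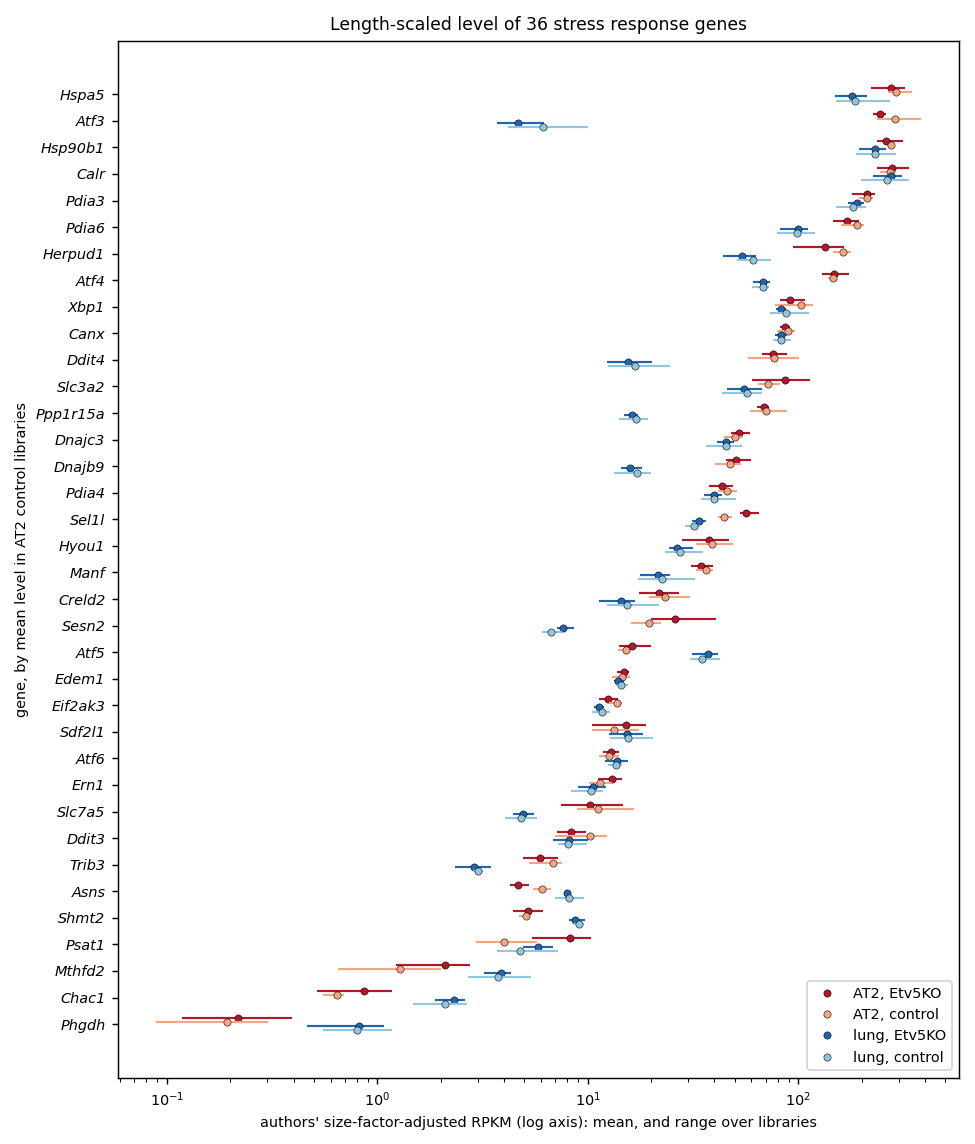
Length-scaled level of the 36 genes (the authors' size-factor-adjusted RPKM, log axis), with points for the mean and lines for the lowest to highest library of each group. Atf3 lies at 244 and 288 in Etv5KO and control AT2 cells and at 4.68 and 6.13 in Etv5KO and control lung, while Calr, Hspa5 and Hsp90b1 lie near the top in all 4 groups.

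Promoters were read for the elements through which these pathways are known to act. RefSeq windows on assembly GRCm38.p6, each of 250 bases before and 50 bases after an annotated start, were found for 32 of the 36 genes; Atf6, Slc7a5, Hyou1 and Manf are named only. The ER stress response element, CCAAT and CCACG with 9 bases between them on either strand, is bound by NF-Y with ATF6. It was found in 7 of 32 genes (21.9%), namely Calr, Canx, Creld2, Dnajc3, Hsp90b1, Hspa5 and Pdia6, against 37 of all 27025 genes with a window (0.137%). Its variant ERSE-II, ATTGG and CCACG with 1 base between them, was found in Herpud1 and in 0.0444% of all genes. The letters TGATGNAA, the core of a composite element of ATF4 and C/EBP factors, were found in Asns, Atf3, Chac1, Herpud1 and Trib3 (15.6%, against 4.51% of all genes), and the XBP1 element TGACGTGG in none of the 32 (0.714% of all genes). The motifs were searched on both strands and do not overlap each other in the windows printed. A match describes these letters only, and a window without a match says nothing about binding. The 5 windows below are those of genes the results return to, Hspa5 and Pdia6 with the ER stress response element, Herpud1 with ERSE-II and TGATGNAA, and Asns and Atf3 with TGATGNAA, and capitals mark these elements as read on the gene's strand.
Hspa5 (chr2:34771840-34772139, plus strand): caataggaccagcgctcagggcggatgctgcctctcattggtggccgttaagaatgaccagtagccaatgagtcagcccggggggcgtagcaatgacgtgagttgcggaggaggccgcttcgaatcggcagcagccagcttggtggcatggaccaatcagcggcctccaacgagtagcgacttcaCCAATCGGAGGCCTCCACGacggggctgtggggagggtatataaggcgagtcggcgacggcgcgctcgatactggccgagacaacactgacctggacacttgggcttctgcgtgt
Pdia6 (chr12:17266339-17266638, plus strand): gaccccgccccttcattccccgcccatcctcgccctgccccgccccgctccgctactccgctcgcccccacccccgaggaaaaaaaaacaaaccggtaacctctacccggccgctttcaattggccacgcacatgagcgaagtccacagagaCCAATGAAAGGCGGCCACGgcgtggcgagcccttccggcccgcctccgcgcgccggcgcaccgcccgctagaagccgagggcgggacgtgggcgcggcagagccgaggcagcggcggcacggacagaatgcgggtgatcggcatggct
Herpud1 (chr8:94386179-94386478, plus strand): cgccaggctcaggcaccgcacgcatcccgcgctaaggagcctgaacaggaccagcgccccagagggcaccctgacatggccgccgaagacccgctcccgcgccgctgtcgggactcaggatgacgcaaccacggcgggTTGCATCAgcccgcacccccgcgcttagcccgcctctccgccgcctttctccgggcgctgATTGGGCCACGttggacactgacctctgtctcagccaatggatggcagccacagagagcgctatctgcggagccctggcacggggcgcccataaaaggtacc
Asns (chr6:7693160-7693459, minus strand): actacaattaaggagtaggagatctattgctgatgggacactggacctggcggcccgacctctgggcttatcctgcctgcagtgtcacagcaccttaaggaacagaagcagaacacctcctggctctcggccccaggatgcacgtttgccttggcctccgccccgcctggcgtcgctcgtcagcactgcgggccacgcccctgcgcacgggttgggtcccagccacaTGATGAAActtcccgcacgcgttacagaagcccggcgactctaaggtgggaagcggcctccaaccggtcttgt
Atf3 (chr1:191183284-191183583, minus strand): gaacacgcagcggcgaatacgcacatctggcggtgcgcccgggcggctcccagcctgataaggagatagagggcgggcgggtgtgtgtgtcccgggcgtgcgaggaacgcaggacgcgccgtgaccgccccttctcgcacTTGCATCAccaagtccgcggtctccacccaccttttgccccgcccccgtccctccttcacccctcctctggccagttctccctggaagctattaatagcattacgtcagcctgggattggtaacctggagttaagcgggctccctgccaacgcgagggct

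The first comparison asked whether these genes differ between Etv5KO and control AT2 cells. Of the 36 genes 3 passed, which is 8.33% against 9.87% of all 14939 genes tested with edgeR. Psat1 and Sel1l were higher in Etv5KO (5.03% of all genes were called higher) and Asns was lower (4.84% of all genes were called lower). The median log2 fold change over the 36 genes was −0.02, against −0.01 over all genes tested. Scaled by library size alone, all genes split into 894 higher and 482 lower in place of 751 higher and 723 lower.

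Psat1 encodes phosphoserine aminotransferase, an enzyme of serine synthesis. It had 23.5, 29.2, 19.3, 15.7 and 29.7 CPM in Etv5KO AT2 cells, against 8.44, 16.4, 12.0 and 8.81 CPM in control AT2 cells. The groups overlapped through 1 pair of libraries, since the lowest Etv5KO library lay below the highest control, which is control 2. Means were 23.5 ± 6.10 CPM in Etv5KO and 11.4 ± 3.67 CPM in controls (SD, n = 5 and 4), 2.04-fold higher, which is log2 1.03 (SE 0.24, edgeR adjusted p 0.0178). Without control 1 or control 4 the edgeR adjusted p was 0.0521 or 0.0538, and without control 2 it was 0.0043.

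Asns encodes asparagine synthetase, a classic ATF4 target, and its promoter window above holds TGATGAAA. Its levels were 10.2, 12.6, 11.7, 10.7 and 11.3 CPM in Etv5KO AT2 cells, against 13.5, 13.9, 15.5 and 16.2 CPM in control AT2 cells. Every Etv5KO library lay below every control. Asns fell by 0.39 on the log2 scale (SE 0.10, edgeR adjusted p 0.0248), with means of 11.3 ± 0.943 CPM in Etv5KO and 14.8 ± 1.27 CPM in controls (SD, n = 5 and 4). The edgeR adjusted p was above 0.05 with library size as the only scaling (0.0822), without Etv5KO library 1, 4 or 5 (0.0612, 0.0643 and 0.0531) and without control 3 or 4 (0.0808 and 0.0772).

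Sel1l encodes the adaptor that holds the ubiquitin ligase HRD1 in its ER degradation complex. The 5 Etv5KO AT2 libraries had 361, 429, 359.6, 358 and 367 CPM, against 307, 322, 281 and 278 CPM in the 4 control AT2 libraries. The groups did not overlap, and 1 Etv5KO library stood above the rest. Sel1l averaged 375.0 ± 30.5 CPM in Etv5KO and 297 ± 21.4 CPM in controls (SD, n = 5 and 4), 1.25-fold higher, which is log2 0.32 (SE 0.08, edgeR adjusted p 0.0216). That p was 0.0739 without control 3 and 0.0626 without control 4. Asns and Sel1l were thus the 2 of 36 genes whose AT2 libraries did not overlap between genotypes, against 12.1% of all genes tested.

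**Figure D2:**
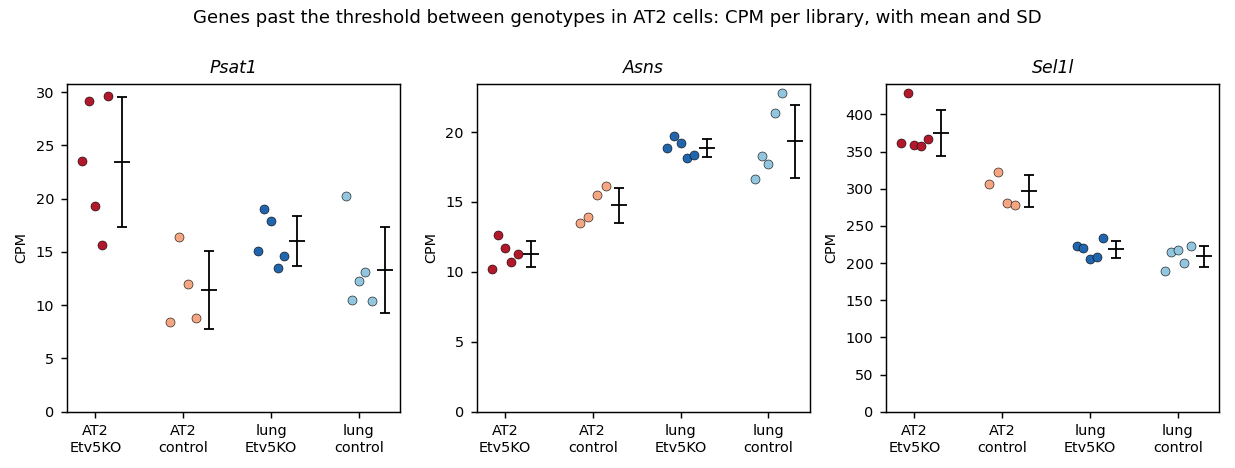
Level of Psat1, Asns and Sel1l in each library (CPM, axis from 0), with the mean and SD of each group beside its points. In AT2 cells the Etv5KO points of Asns lie below all controls and those of Sel1l above all controls, while Psat1 overlaps at 15.7 CPM in Etv5KO and 16.4 CPM in controls.

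Among the other enzymes of the group, Mthfd2, Shmt2 and Phgdh did not pass. Mthfd2, the mitochondrial one-carbon enzyme, had 4.45, 6.63, 5.23, 3.01 and 6.18 CPM in Etv5KO AT2 cells, against 2.41, 4.87, 3.62 and 1.58 CPM in controls. Its groups overlapped, with an estimate of 0.69 on the log2 scale (95% interval 0.01 to 1.37, edgeR adjusted p 0.217). Shmt2, which passes one-carbon units from serine in mitochondria, had an estimate of 0.02 (interval −0.22 to 0.25). Phgdh, the first enzyme of serine synthesis, was near the limit of counting in AT2 cells, at 0.236 to 0.780 CPM in Etv5KO and 0.175 to 0.603 CPM in controls, and its interval ran from −0.92 to 1.17. Phgdh is also uncertain because 63.1% of the 50-base words of its transcript occur in another gene, most of them in Gm7901, so uniquely aligned reads see only part of it.

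None of the 6 stress transcription factors passed between genotypes in AT2 cells. ATF4 is itself controlled mainly at translation, and its mRNA had 286, 257, 241, 241 and 320.0 CPM in Etv5KO against 255, 258, 279 and 275 CPM in controls. The libraries overlapped throughout, with a log2 estimate of 0.00 (95% interval −0.21 to 0.22). Atf3, an early stress-induced repressor, had an estimate of −0.26 (interval −0.54 to 0.03, edgeR adjusted p 0.277), and Ddit3, which encodes the pro-apoptotic factor CHOP, one of −0.32 (interval −0.68 to 0.04, edgeR adjusted p 0.286). Estimates were −0.19 for Xbp1, 0.08 for Atf5 and 0.01 for Atf6. The gene counts do not show whether Xbp1 mRNA was spliced.

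The sensors and the phosphatase did not pass either. Eif2ak3, the gene of PERK, had 54.0, 61.0, 60.6, 66.3 and 53.8 CPM in Etv5KO AT2 cells, against 67.5, 60.0, 66.1 and 69.0 CPM in controls. The groups overlapped and the estimate was −0.16 (interval −0.32 to 0.00, edgeR p 0.0451 before and 0.212 after adjustment). Ern1, the gene of IRE1, had an estimate of 0.17 (interval −0.04 to 0.38), and Ppp1r15a, which encodes the stress-induced subunit GADD34 of the eIF2alpha phosphatase, one of −0.04 (interval −0.29 to 0.21). Of the 4 effectors, Sesn2, a leucine sensor that restrains mTORC1, had an estimate of 0.40 (interval −0.01 to 0.82) with 1 Etv5KO library at 113 CPM, the others at 56.4 to 76.1 CPM and controls at 45.7 to 62.6 CPM, and without that library it was 0.20. Estimates were 0.43 for the glutathione-degrading enzyme gene Chac1, −0.22 for the pseudokinase gene Trib3 and −0.04 for the mTORC1 inhibitor gene Ddit4.

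Apart from Sel1l, no folding or degradation gene passed between genotypes in AT2 cells. All 8 chaperones and co-chaperones failed the threshold, with estimates between −0.11 for Creld2 and 0.18 for Sdf2l1, which supports the HSP70 cycle of the ER. Hspa5, the central chaperone BiP, had 605, 781, 901, 707 and 815 CPM in Etv5KO, against 740.3, 746, 771 and 958 CPM in controls. These libraries overlapped and the estimate was −0.09 (interval −0.36 to 0.17). The 3 disulfide isomerase genes had estimates of −0.18 (Pdia6), −0.09 (Pdia4) and −0.01 (Pdia3), and the lectin chaperones of −0.06 (Canx, calnexin) and 0.01 (Calr). Herpud1, which links the degradation complex to the membrane, had 282, 390.1, 327, 383 and 227 CPM in Etv5KO and 422, 348, 365 and 425 CPM in controls, with overlap, an estimate of −0.29 (interval −0.60 to 0.02) and an edgeR adjusted p of 0.254. Edem1, which directs misfolded glycoproteins to degradation, had an estimate of 0.01, and the transporter subunits Slc3a2 and Slc7a5 had estimates of 0.25 (interval −0.12 to 0.62) and −0.14 (interval −0.66 to 0.38).

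In lung, 0 of the 36 genes passed between Etv5KO and control with edgeR, where 0.415% of all 17098 genes tested were called, and DESeq2 and limma-voom also called 0. At an unadjusted p under 0.05, 1 gene was counted, Sesn2, with 23.7, 19.5, 20.2, 21.2 and 20.2 CPM in Etv5KO lung and 19.7, 16.6, 20.9, 16.8 and 17.6 CPM in control lung. Its groups overlapped, and the log2 estimate was 0.19 (edgeR p 0.0396 before and 0.853 after adjustment). No gene of the 36 separated the lung libraries of the genotypes without overlap, against 1.57% of all genes. Estimates in lung ran from −0.40 for Atf3 to 0.27 for Psat1, with a median of −0.02. Psat1 had 15.1, 19.1, 17.9, 13.5 and 14.7 CPM in Etv5KO lung, against 20.2, 10.5, 12.2, 13.1 and 10.4 CPM in control lung, and the control library at 20.2 CPM lay above every Etv5KO library. In bulk lung, fewer cells of a type and less RNA per cell cannot be told apart.

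**Figure D3:**
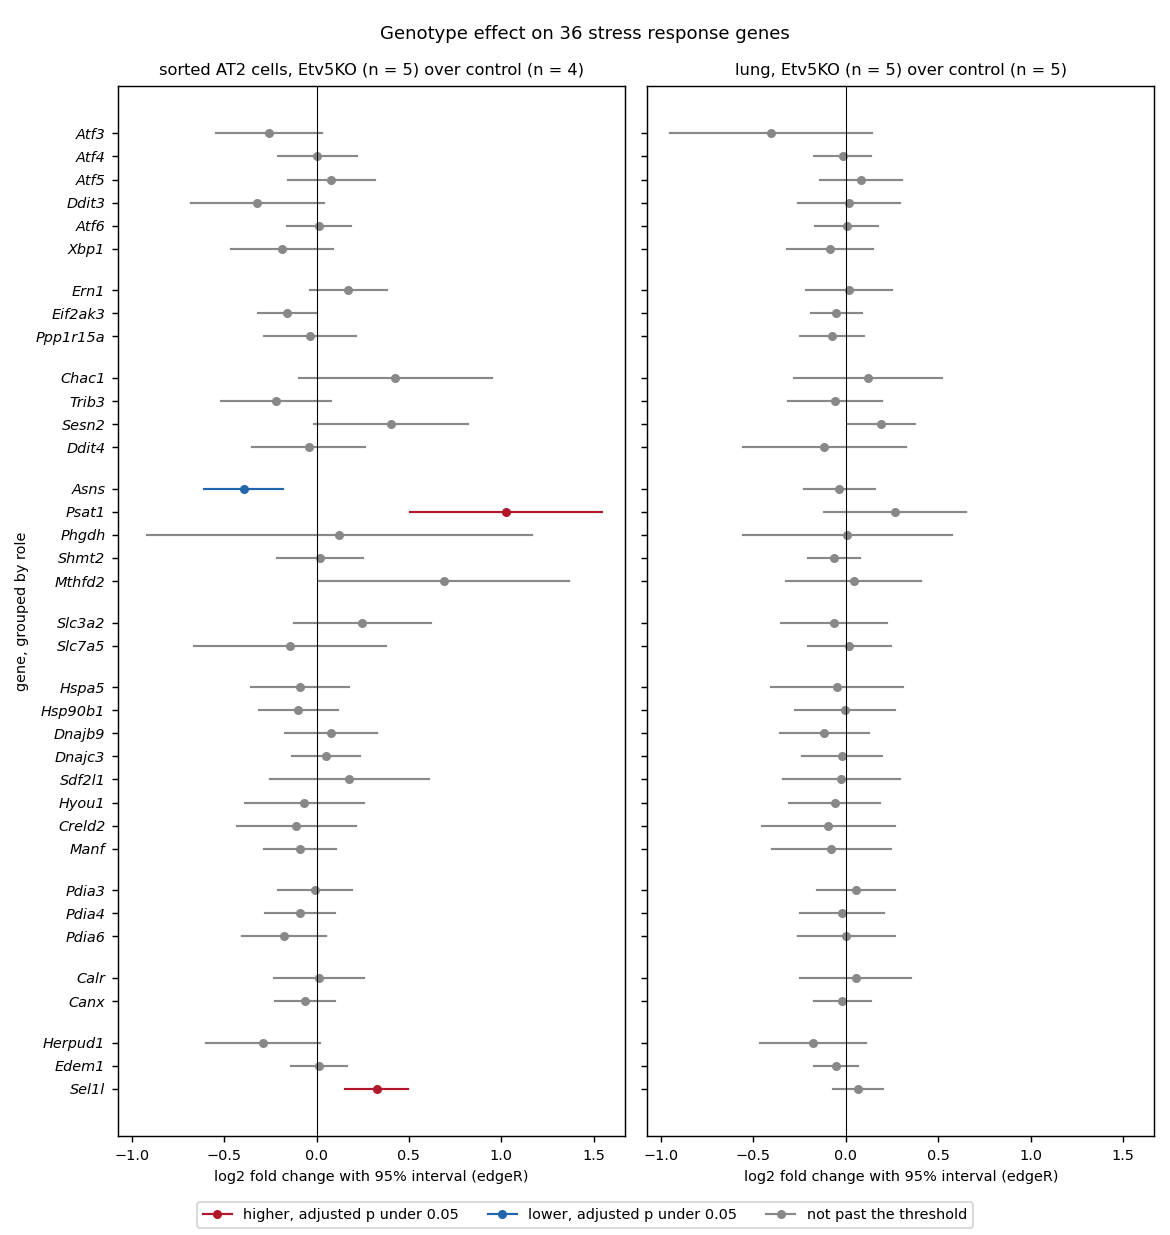
Genotype effect on each of the 36 genes in AT2 cells (left) and lung (right), as the log2 fold change of Etv5KO over control with its 95% interval, on a shared axis. Psat1 (1.03), Sel1l (0.32) and Asns (−0.39) are coloured in AT2 cells and no gene is coloured in lung.

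The difference between the genotype effects of the tissues was tested as an interaction over all 19 libraries. With edgeR 0 of 36 genes passed, against 1.59% of all genes, 3 had an unadjusted p under 0.05, and DESeq2 and limma-voom also called 0. These 3 were the genes called in AT2 cells: the effect in AT2 cells minus that in lung was −0.37 for Asns (interval −0.64 to −0.10, edgeR adjusted p 0.228), 0.25 for Sel1l (interval 0.05 to 0.45, edgeR adjusted p 0.314) and 0.75 for Psat1 (interval 0.10 to 1.40, edgeR adjusted p 0.366). The calls for these genes in AT2 cells were therefore not shown to differ from lung.

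Genes of the same pathways outside the 36 were read from 6 further lists, beside 9.87% of all genes called between genotypes in AT2 cells, 5.03% higher and 4.84% lower. Of 11 other eIF2alpha kinase, phosphatase and stress factor genes, 2 fell in Etv5KO AT2 cells and none rose: Nupr1, a stress-induced chromatin protein, by 2.25 on the log2 scale, and Eif2ak4, the gene of GCN2, by 0.37. Nupr1 was at 38.6 ± 12.5 CPM in Etv5KO and 183 ± 48.0 CPM in control AT2 cells, and it was the single gene of the 6 lists that passed in lung, where it fell by 0.49. Of 29 tested ATF4 target and amino acid supply genes 2 fell, Gars, the glycyl-tRNA synthetase gene (−0.37), and Aldh18a1, which starts proline synthesis (−0.57). Neither list had a gene that rose, and the share called was 18.2% in the first list and 6.90% in the second.

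On the folding side, 1 of 20 other ER chaperone genes fell, the disulfide isomerase gene Txndc5 (−0.39), and 1 of 20 translocon and glycosylation genes, Stt3b of the oligosaccharyltransferase (−0.28). Of 18 other degradation genes 1 rose, Derl3, a membrane protein of the dislocation channel (0.60), and its groups did not overlap. The share called was 5.00%, 5.00% and 5.56% in these 3 lists, below that of all genes. Of 11 tested genes for other stress transducers, Traf2, an adaptor of IRE1, rose (0.40) and Creb3l1, an ER-bound transcription factor, and Bcl2l11, the cell death gene BIM, fell (−0.66 and −0.61). Each of these passed with edgeR at an adjusted p under 0.05 over all genes. The share called in the transducer list was 27.3%, above the 9.87% of all genes. Medians of the 6 lists ran from −0.13 to 0.07.

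Other markers moved with genotype in the AT2 libraries. Of 8 AT1 markers (AT1 cells line the gas exchange surface) 4 rose and 1 fell, and their summed level was 3760 to 4240 CPM in Etv5KO against 2662 to 3490 CPM in controls, with none at 0. Of 6 airway secretory markers 2 rose (summed 632 to 967 against 318 to 735 CPM). Of 10 AT2 markers 3 fell (134900 to 174802 against 142034 to 214335 CPM). Of 7 macrophage markers 1 rose, but 4 had negative estimates, with a median of −0.11. The macrophage sum, with Lyz2 the most abundant, was 19785.6 to 32786.5 CPM in Etv5KO against 26308.4 to 47427.5 CPM in controls. No endothelial, mesenchymal, ciliated, lymphocyte or neutrophil marker passed. Their estimates were positive for 7 of 7, 6 of 6, 4 of 5, 4 of 5 and 3 of 4 tested, with medians of 0.30, 0.51, 0.22, 0.50 and 0.04. The 1 of 2 tested plasma cell markers that rose was Derl3, also the degradation gene named above. Of 16 genes of the dissociation and immediate early response 1 fell, Jun (6.25%, against 9.87% of all genes called). Estimates were negative for 15 of the 16, with a median of −0.33. Their sum was 11313 to 15010 CPM in Etv5KO and 13675 to 19414 CPM in controls. Their part in the calls of Psat1, Asns and Sel1l was not tested.

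The second question was how the same genes stand in AT2 cells against the lung tissue that contains them. In Etv5KO libraries, 22 of the 36 genes were higher in AT2 cells than in lung and 6 were lower, beside 78.0% of all genes called with edgeR, 38.3% higher and 39.7% lower. In control libraries 20 were higher, 6 were lower and 10 did not pass, beside 74.5% of all 17118 genes called, 35.6% higher and 38.9% lower. The median log2 difference over the 36 genes was 0.30 in either genotype, against 0.01 in Etv5KO and −0.01 in controls over all genes. The 2 comparisons share no library, and the difference between them, which is the interaction above, passed for none of the 36 genes, so a call in a single genotype is not shown to differ from the other. The 6 lower genes were the same in both genotypes: Phgdh, Chac1, Mthfd2, Atf5, Shmt2 and Asns. Scaled by library size alone, the median of all genes moved by −0.37 in Etv5KO and by −0.41 in controls, and the 36 genes stood at 13 higher and 12 lower in Etv5KO and at 10 higher and 12 lower in controls. Over all genes that scaling gave 3579 higher and 9341 lower in Etv5KO and 3318 higher and 9484 lower in controls. Directions below are relative to the TMM centre.

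Sorted cells and dissected tissue differ in handling as well as in cell type. Of 16 genes of the dissociation and immediate early response, 14 were higher in AT2 cells than in lung in controls and 1 was lower, with a median log2 difference of 2.90. Of all genes 35.6% were higher and 38.9% lower. In Etv5KO 14 were higher and 2 lower, where 38.3% of all genes were higher and 39.7% lower. Their summed level was 11313 to 15010 CPM in Etv5KO AT2 cells, 13675 to 19414 CPM in control AT2 cells, 917 to 1213 CPM in Etv5KO lung and 955 to 1257 CPM in control lung, and no gene of the list was at 0. Cell type and sorting cannot be told apart in any difference between AT2 cells and lung.

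Of the 6 stress transcription factors, Atf3, Atf4 and Ddit3 were higher in AT2 cells than in lung in controls and Atf5 was lower; the call of Ddit3 was lost in 7 of 9 fits that left out a library. Atf3 had 505, 494, 615 and 798 CPM in control AT2 cells, against 20.6, 8.56, 14.6, 10.2 and 8.82 CPM in control lung. The groups were far apart: the difference was 48.0-fold (log2 5.58, SE 0.28, edgeR adjusted p 4.36e-09), beyond the log2 3.27 of the furthest AT2 marker. The library with the most Atf3, control AT2 library 4, also had the highest sum of the dissociation and immediate early genes, 19414 CPM. Among Etv5KO AT2 libraries, library 2 had the most Atf3, 540 CPM, but a sum of 12793 CPM. The highest sum there was 15010 CPM, in library 4. Whether Atf3 follows this sum across libraries was not tested. In Etv5KO libraries Atf3 averaged 509 ± 26.5 CPM in AT2 cells and 9.51 ± 2.41 CPM in lung (SD, n = 5 each), 53.5-fold apart.

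Atf4 had 255, 258, 279 and 275 CPM in control AT2 cells, against 124, 108, 126, 121 and 130 CPM in control lung. Its lowest AT2 library was far above its highest lung library, and the fold was 2.24 in Etv5KO and 2.20 in controls (edgeR adjusted p 2.83e-08 in controls). Atf5, a relative of ATF4 that is known for the mitochondrial stress response, had 33.7, 33.0, 29.8 and 32.3 CPM in control AT2 cells and 63.3, 67.6, 75.6, 67.4 and 87.4 CPM in control lung. It was lower in every AT2 library, by 1.16 on the log2 scale in both genotypes, but its gene body overlaps Nup62 and Il4i1b, and use of strand in counting is not given in the sources used here. Ddit3, whose gene body overlaps Mbd6 and Mars1, differed by 0.07 in Etv5KO, which did not pass, and by 0.40 in controls (edgeR adjusted p 0.0404). Its control difference was 0.01 (edgeR adjusted p 0.979) with library size as the only scaling, and its edgeR adjusted p was 0.0609 to 0.101 without AT2 library 2, 3 or 4 or lung library 1, 2, 3 or 4. Xbp1 and Atf6 passed in neither genotype. Xbp1 passed in controls without AT2 library 2 or lung library 5 (edgeR adjusted p 0.011 and 0.0185), and in Etv5KO without AT2 library 1, 2 or 5 (edgeR adjusted p 0.0256 to 0.0386).

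Ppp1r15a stood out among the sensors and the phosphatase. It had 146, 149, 179 and 218 CPM in control AT2 cells, against 43.9, 34.1, 40.5, 39.8 and 46.6 CPM in control lung. No library overlapped, with a fold of 4.37 in Etv5KO and 4.25 in controls (edgeR adjusted p 2.76e-08 in controls); part of its gene body overlaps Tulp2. Eif2ak3 had 67.5, 60.0, 66.1 and 69.0 CPM in control AT2 cells and 48.6, 50.6, 59.5, 55.0 and 57.7 CPM in control lung, a narrow separation of 1.22-fold that turned to a log2 value of −0.13 with library size as the only scaling. In Etv5KO its edgeR adjusted p was 0.0531 to 0.0626 without AT2 library 4 or lung library 1 or 3. Ern1 had 49.9, 46.1, 43.3 and 54.3 CPM in control AT2 cells and 34.3, 46.6, 48.8, 37.8 and 45.7 CPM in control lung. These libraries overlapped. Ern1 passed in Etv5KO (0.35, edgeR adjusted p 0.0040, and −0.02 with library size as the only scaling) and not in controls (0.19, edgeR adjusted p 0.137).

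The effectors split. Ddit4 had 132, 103, 136 and 179.5 CPM in control AT2 cells, against 24.7, 21.7, 43.1, 31.1 and 25.2 CPM in control lung. Sesn2 had 54.0, 62.6, 45.7 and 56.7 CPM in control AT2 cells, against 19.7, 16.6, 20.9, 16.8 and 17.6 CPM in control lung. Neither gene overlapped between the tissues, with folds of 4.99 for Ddit4 and 3.49 for Sesn2 in Etv5KO and of 4.73 and 3.001 in controls. Trib3, which dampens ATF4 and CHOP signalling, was 2.11-fold higher in AT2 cells in Etv5KO and 2.34-fold higher in controls. Chac1, an ATF4 and CHOP target, went the other way: it had 1.15, 0.917, 1.16 and 1.05 CPM in control AT2 cells, against 2.49, 2.40, 4.31, 4.29 and 3.58 CPM in control lung. All AT2 libraries were below all lung libraries, and the log2 difference was −1.36 in Etv5KO and −1.67 in controls (SE 0.19 and 0.23).

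Enzymes of amino acid and one-carbon metabolism were mostly lower in AT2 cells. Of the 5 enzyme genes 4 were lower in AT2 cells than in lung in controls and 0 were higher, where 38.9% of all genes were lower and 74.5% were called in either direction. Mthfd2 had 2.41, 4.87, 3.62 and 1.58 CPM in control AT2 cells, against 12.8, 7.68, 6.44, 9.02 and 8.50 CPM in control lung. Shmt2 had 11.6, 12.7, 12.6 and 12.7 CPM in control AT2 cells, against 22.6, 20.5, 20.6, 22.7 and 21.4 CPM in control lung. Both genes were lower in every AT2 library, with log2 differences for Mthfd2 of −0.83 in Etv5KO and −1.49 in controls, and for Shmt2 of −0.70 and −0.79; the gene body of Shmt2 overlaps Ndufa4l2. Phgdh had 0.219, 0.531, 0.603 and 0.175 CPM in control AT2 cells and 1.86, 1.11, 1.45, 2.25 and 1.07 CPM in control lung, which again did not overlap (log2 −1.96, SE 0.38), with the uncertainty of shared words given above. The log2 difference of Asns was −0.74 in Etv5KO and −0.38 in controls. Psat1 was higher in AT2 cells in Etv5KO (0.55, SE 0.17, edgeR adjusted p 0.0083), with overlap of libraries and 0.19 (edgeR adjusted p 0.355) with library size as the only scaling, and did not pass in controls (−0.21, interval −0.74 to 0.32).

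Both subunits of the large neutral amino acid transporter were higher in AT2 cells. The light chain gene Slc7a5, the pore for leucine and related amino acids, had 38.2, 61.5, 34.3 and 33.0 CPM in control AT2 cells, against 21.0, 14.7, 18.8, 16.7 and 16.4 CPM in control lung. The groups were apart, at 2.15-fold in Etv5KO and 2.39-fold in controls. The heavy chain gene Slc3a2, which carries the light chain to the surface, had 250.3, 289.9, 255 and 227 CPM in control AT2 cells and 152, 173, 234, 231 and 206 CPM in control lung. These overlapped, and the fold of 1.29 in controls (edgeR adjusted p 0.0214) became a log2 value of −0.03 with library size as the only scaling. Its edgeR adjusted p was 0.0505 without AT2 library 2 and 0.0558 without lung library 2.

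**Figure D4:**
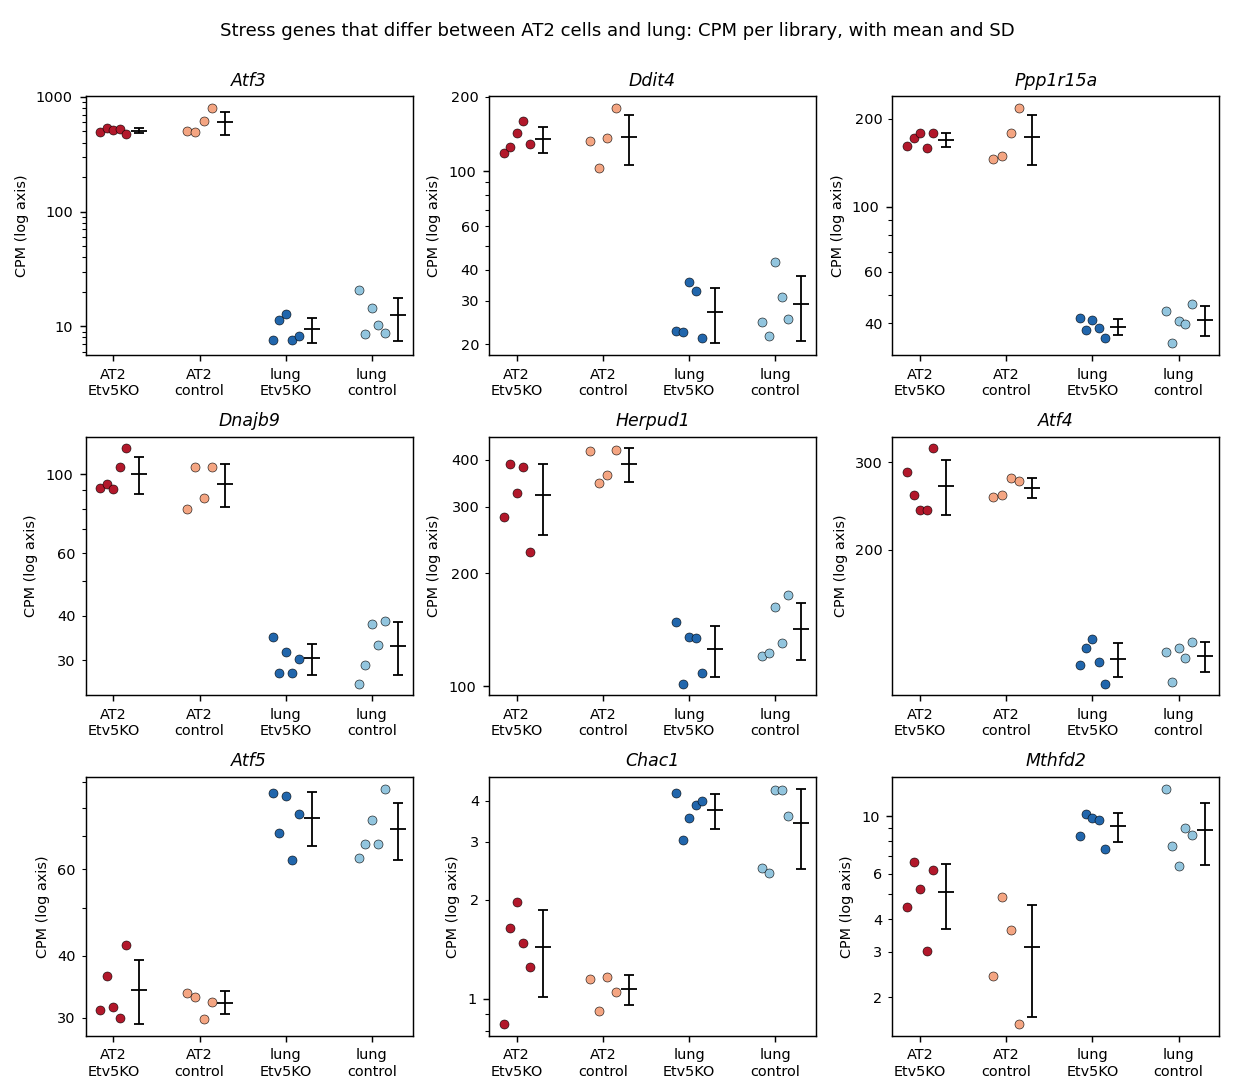
Level of 9 of the genes in each library (CPM, log axes that differ between panels), with the mean and SD of each group beside its points. AT2 libraries of both genotypes lie above all lung libraries for Atf3, Ddit4, Ppp1r15a, Dnajb9, Herpud1 and Atf4, and below them for Atf5 and Chac1; for Mthfd2 the highest Etv5KO AT2 library (6.63 CPM) lies above the lowest control lung library (6.44 CPM).

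Of the 8 chaperone and co-chaperone genes 6 were higher in AT2 cells than in lung in controls and none was lower, where 35.6% of all genes were higher and 38.9% lower; the share called, 75.0%, was that of all genes (74.5%). Dnajb9, an HSP40 partner of BiP that also restrains IRE1, had 79.8, 105, 85.5 and 105 CPM in control AT2 cells, against 25.8, 29.0, 38.0, 33.1 and 38.6 CPM in control lung. Its groups were well apart, at 3.29-fold in Etv5KO and 2.87-fold in controls (edgeR adjusted p 5.32e-07 in controls). Manf, a secreted ER stress factor, had 104, 85.4, 91.0 and 102 CPM in control AT2 cells, against 51.9, 44.7, 53.8, 56.9 and 83.0 CPM in control lung, without overlap and 1.65-fold apart in Etv5KO and 1.66-fold apart in controls. Hspa5, whose window carries the ER stress response element, had 740.3, 746, 771 and 958 CPM in control AT2 cells and 409, 418, 430.1, 513 and 744 CPM in control lung. Control AT2 library 1 lay just below the highest lung library, control lung 5, and the fold was 1.57 in Etv5KO and 1.61 in controls (edgeR adjusted p 0.0031 in controls). Scaled by library size alone, the control difference of Hspa5 was 0.28 (edgeR adjusted p 0.140) and that of Manf 0.32 (edgeR adjusted p 0.0575). Control lung 5 had the highest level of its group for 23 of the 36 genes.

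Creld2, an ER stress-induced folding factor, and Hyou1, the exchange factor of BiP, were 1.55-fold and 1.46-fold higher in AT2 cells in Etv5KO and 1.57-fold and 1.46-fold higher in controls, and neither passed in either genotype with library size as the only scaling. Hsp90b1 did not pass in Etv5KO (0.21, edgeR adjusted p 0.0901) and passed in controls (0.30, edgeR adjusted p 0.0325, and −0.10 with library size as the only scaling), where the adjusted p ran from 0.0523 to 0.0787 without AT2 library 1, 3 or 4 or lung library 1, 2 or 3 in edgeR. Dnajc3, a co-chaperone that inhibits PERK, passed in Etv5KO (0.25, and −0.12 with library size as the only scaling) and not in controls (0.17). Sdf2l1 passed in neither genotype.

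Among the disulfide isomerases Pdia6, which works with BiP, had the largest difference. It had 462, 356, 458 and 443 CPM in control AT2 cells, against 197, 197, 176, 249 and 264 CPM in control lung. The groups did not overlap, with folds of 1.77 in Etv5KO and 2.00 in controls (edgeR adjusted p 1.78e-05 in controls). Pdia3 had 639, 544, 629 and 573 CPM in control AT2 cells and 482, 465, 413, 553 and 579 CPM in control lung, with overlap, a log2 difference of 0.27 and an edgeR adjusted p of 0.0358 that reversed to −0.14 with library size as the only scaling. Without AT2 library 1 or 3 or lung library 1, 2 or 3 that p was 0.0614 to 0.0888 in edgeR. In Etv5KO Pdia3 differed by 0.21 on the log2 scale (edgeR adjusted p 0.0462). Without AT2 library 1, 3, 4 or 5 or lung library 3, 4 or 5 its edgeR adjusted p was 0.0565 to 0.107. It also did not pass there with DESeq2 (DESeq2 adjusted p 0.0623) or without the count filter (edgeR adjusted p 0.061). Pdia4 had 143, 128, 141 and 158 CPM in control AT2 cells and 109.6, 108, 105, 129 and 154 CPM in control lung, which overlapped, and it did not pass (edgeR adjusted p 0.0751), except without AT2 library 2 or lung library 5 (edgeR adjusted p 0.0421 and 0.0076). The lectin chaperones did not pass in either genotype: Calr had 596, 502, 562 and 597 CPM in control AT2 cells and 479, 501, 403, 586 and 680.4 CPM in control lung. Canx had 438, 359, 423 and 413 CPM in control AT2 cells and 354, 350.2, 339.9, 389 and 411 CPM in control lung. Both sets of libraries overlapped, with log2 differences of 0.10 (interval −0.19 to 0.39) and 0.15 (interval −0.03 to 0.34).

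In ER-associated degradation, Herpud1 had 422, 348, 365 and 425 CPM in control AT2 cells, against 120.4, 123, 163, 130.2 and 175 CPM in control lung. All AT2 libraries were above all lung libraries, at 2.56-fold in Etv5KO and 2.76-fold in controls (edgeR adjusted p 3.45e-07 in controls), and Herpud1 is the gene whose window holds both ERSE-II and TGATGNAA. Sel1l had 307, 322, 281 and 278 CPM in control AT2 cells, against 189, 215, 217, 199.9 and 223 CPM in control lung. It was higher in every AT2 library, at 1.72-fold in Etv5KO and 1.43-fold in controls, where library size as the only scaling left 0.12 on the log2 scale (edgeR adjusted p 0.265). Edem1 had 110.4, 109, 98.6 and 118 CPM in control AT2 cells and 109, 102, 101, 100.2 and 113 CPM in control lung, which overlapped. It passed in Etv5KO (0.13, and −0.24 with library size as the only scaling) and not in controls (0.06), and 7 of 10 fits that left out an Etv5KO library lost the call (edgeR adjusted p 0.0539 to 0.102).

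**Figure D5:**
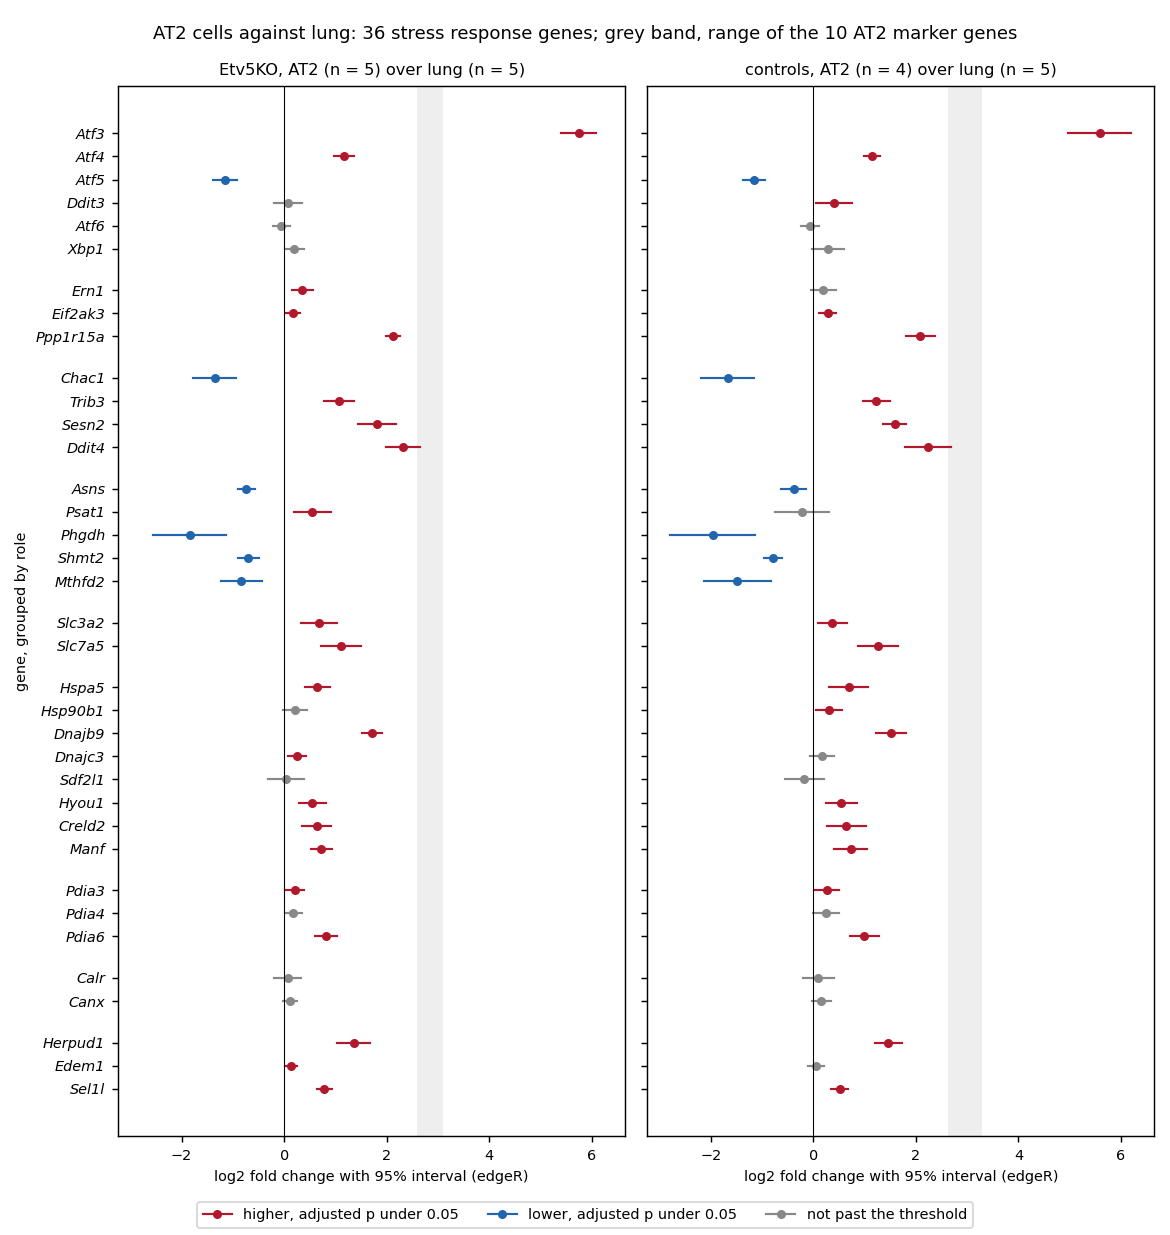
Difference of each of the 36 genes between AT2 cells and lung, as the log2 fold change of AT2 over lung with its 95% interval, in Etv5KO (left) and in controls (right), with the grey band at the range of the 10 AT2 markers (2.65 to 3.27 in controls). Atf3 (5.74 in Etv5KO and 5.58 in controls) lies beyond the band, and the same 6 genes are coloured as lower in both panels; with library size as the only scaling, of the genes coloured as higher Ern1, Eif2ak3, Dnajc3, Pdia3 and Edem1 change sign in Etv5KO and Eif2ak3, Slc3a2, Hsp90b1 and Pdia3 in controls, and of those not past the threshold Xbp1, Ddit3, Hsp90b1, Sdf2l1, Pdia4, Calr and Canx change sign in Etv5KO and Xbp1, Ern1, Dnajc3, Pdia4, Calr, Canx and Edem1 in controls.

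Set by promoter letters, the 7 genes with the ER stress response element counted 4 higher, 0 lower and 3 not passed in control AT2 cells against control lung, with a median log2 difference of 0.30, where 35.6% of all genes were higher and 38.9% lower. The 12 other tested genes with the same element counted 6 higher, 4 lower and 2 not passed, with a median of 0.32. In Etv5KO, where 38.3% of all genes were higher and 39.7% lower, the 7 counted 4 higher and 0 lower, with a median of 0.25. The 12 others there counted 6 higher and 6 lower, with a median of 0.016. With library size as the only scaling, Hspa5, Hsp90b1 and Creld2 no longer passed as higher in controls, and Dnajc3, Calr and Canx became lower. In Etv5KO that scaling ended the calls of Dnajc3 and Creld2, and Calr and Canx became lower. The median of all genes moved with it by −0.41 in controls and −0.37 in Etv5KO. The 12 others were not counted with that scaling. Between genotypes in AT2 cells none of the 7 passed, and of the 10 others tested 1 was higher, Derl3, and 1 lower, Acacb, which makes malonyl-CoA and was named after its value was seen. The 5 genes with TGATGNAA did not share a direction between the tissues: Atf3, Herpud1 and Trib3 were higher in control AT2 cells and Asns and Chac1 lower.

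The further lists of the same pathways were also read between control AT2 cells and control lung, where 35.6% of all genes were higher and 38.9% lower. Of 18 other degradation genes 13 were higher and 0 lower (median 0.43), and of 20 translocon, signal peptidase and glycosylation genes 17 were higher and 0 lower (median 0.55). Of 20 other chaperones and folding enzymes 10 were higher and 4 lower (median 0.22). The amino acid side was divided: of 31 tested ATF4 target and amino acid supply genes 11 were higher and 14 lower (median −0.03), with Gdf15, a stress-induced secreted factor, at 3.40 and Stc2, a secreted glycoprotein, at −4.66, a pair named after their values were seen. Of 11 other kinases, phosphatase and stress factors 3 were higher and 4 lower, and of 11 tested transducers 6 were higher and 3 lower. In Etv5KO libraries, with 38.3% of all genes higher and 39.7% lower, the counts were 14 higher and 1 lower, 17 and 1, 10 and 7, 9 and 15 of 30 tested, 3 and 3, and 5 and 3 in the same order of lists. These counts are relative to the TMM centre. Library size as the only scaling moved the median of all genes by −0.41 in controls and −0.37 in Etv5KO, and the lists were not counted with it.

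The spread between libraries was lower than over all genes in control AT2 cells and higher in control lung. The median coefficient of variation over the 36 genes was 13.6% in Etv5KO AT2 cells, 10.4% in control AT2 cells, 11.6% in Etv5KO lung and 17.1% in control lung, against 14.2%, 14.7%, 11.8% and 12.4% over 17698 genes. The genes behind these medians were not matched for level. The summed level of the 36 genes was 6504 to 7893 CPM in Etv5KO AT2 cells, 6786 to 8017 CPM in control AT2 cells, 4450.3 to 5322 CPM in Etv5KO lung and 4394 to 5947 CPM in control lung. The AT2 sums of the genotypes overlapped, as did the lung sums, and on this TMM scale every AT2 sum was above every lung sum. As a share of all counts the tissues overlapped: 0.579% to 0.689% in AT2 cells against 0.515% to 0.597% in lung in Etv5KO. In controls the shares were 0.593% to 0.678% in AT2 cells and 0.494% to 0.652% in lung. The largest lung sum was that of control lung 5, which had the highest level of its group for 23 of the 36 genes.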

How the data were processed

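RNA of 19 libraries was analysed. The authors deposited, per the file headers, raw counts of uniquely aligned reads per gene model, and RPKM values that they had also divided by the size factor of the sample. The submitters' processing notes name GSNAP and mm9; gene models, counting tool and use of strand: not given in the sources used here. Unique alignment removes reads shared by near-identical genes. Files hold 36528 Entrez Gene IDs, of which 31049 were named from the RefSeq table of GRCm38.p6; promoter windows come from that assembly and were not combined with mm9 coordinates.

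Total counts ran from 14971793 to 28671262 per library, and the precision of low genes is limited by them. No replicate pair agreed within sampling noise (chi-square per degree of freedom 9.21 to 75 over 36 pairs). Counts were tested with edgeR 4.0.16 in R 4.3.3 by the quasi-likelihood F test, two-sided, with TMM scaling and filterByExpr (minimum count 10, minimum total 15), and Benjamini-Hochberg adjustment ran over all genes tested at a threshold of 0.05. Each comparison was fitted on its own libraries and the interaction on all 19. Standard errors and 95% intervals were derived from the F statistics. The procedure was tested on simulated data. DESeq2 1.42.0, limma-voom (limma 3.58.1), other scalings, no count filter and leaving out each library were alternatives.

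The 36 members and all lists were chosen with earlier results of these data known. All members were named. Library values were given for members past the threshold between genotypes and, per role, for up to 3 with the largest difference between control AT2 cells and control lung, with some further members added after their values were seen. From other pathway lists, up to 4 genes past the threshold between genotypes were named.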

Additional observations from a re-analysis of the deposited data

Results flagged for a closer look

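The level of each of the 36 genes was checked within each of the 4 groups for a library far from the rest of its group, and 6 of 144 sets were flagged, where chance alone flags a share of about the threshold, 0.05. Trib3 was lowest in control AT2 library 2, at 11.4 CPM. Shmt2 was lowest in control AT2 library 1, at 11.6 CPM. Hspa5 was highest in control AT2 library 4, at 958 CPM. Sel1l was highest in Etv5KO AT2 library 2, at 429 CPM. Hyou1 was highest in Etv5KO lung library 1, at 157 CPM, and Psat1 in control lung library 1, at 20.2 CPM.

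Among the pathway genes outside the 36, 3 differed between the tissues in their genotype effect by the interaction test in edgeR, 1 of 11, 1 of 20 and 1 of 12 tested in their lists, and 0 of 31, 18 and 20 in the other lists, against 1.59% of all 17698 genes. The effect in AT2 cells minus that in lung was −1.77 on the log2 scale for Nupr1 (edgeR adjusted p 0.000494), −0.42 for the disulfide isomerase gene Txndc5 (edgeR adjusted p 0.0189) and 0.36 for the IRE1 adaptor gene Traf2 (edgeR adjusted p 0.031).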

How the results depend on the processing

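Between genotypes in AT2 cells, the count of 2 genes higher stayed at 2 under the 6 other scalings, filters and tools and ran from 0 to 2 when a library was left out. The count of 1 lower was 0 with library size as the only scaling, and from 0 to 1 without a library. In lung and in the interaction 0 of the 36 genes passed under every setting run, while over all genes DESeq2 called 197 in place of 71 in lung and 467 in place of 282 in the interaction, and leaving out a library gave 44 to 80 and 198 to 319. Between AT2 cells and lung, leaving out a library gave 19 to 23 higher in Etv5KO and 16 to 22 higher in controls, with 6 lower throughout. With library size as the only scaling, 13 were higher and 12 lower in Etv5KO, and 10 were higher and 12 lower in controls. Among genes that had passed, that scaling reversed Ern1 (−0.015), Eif2ak3 (−0.19), Dnajc3 (−0.12), Pdia3 (−0.16) and Edem1 (−0.24) in Etv5KO, and Eif2ak3 (−0.13), Slc3a2 (−0.028), Hsp90b1 (−0.10) and Pdia3 (−0.14) in controls, beside a shift of the median of all genes by −0.37 in Etv5KO and −0.41 in controls; the cause was not tested. It also ended the calls of Creld2, Hyou1, Slc3a2 and Psat1 in Etv5KO and of Ddit3, Hspa5, Creld2, Hyou1, Manf and Sel1l in controls. Genes that had not passed became lower, namely Atf6, Pdia4, Calr and Canx in Etv5KO and Atf6, Dnajc3, Sdf2l1, Calr, Canx and Edem1 in controls. With DESeq2's size factors or the authors', Eif2ak3, Pdia3 and Edem1 in Etv5KO and Ddit3, Hsp90b1 and Pdia3 in controls no longer passed. No paired analysis was possible because the labels give no replicate numbers and tie no AT2 library to a lung library of the same mouse. Depth limits Phgdh, Chac1 and Mthfd2, the genes with the lowest levels in AT2 cells.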
